A study of Mus musculus with 24 samples.

Results

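The 38 genes described here are antiviral genes of the type I interferon pathway, taken as a list of symbols and looked up by Ensembl identifier in GENCODE mouse release 21 among the 52636 gene models that each library lists. All 38 were found and all 38 passed the filter on low counts, so no member was lost. RNA sequencing measured them in cultured mouse macrophages grown from precursors of the bone marrow. The groups were KO_media and WT_media, Ninj1 knockout and wild-type C57BL/6 cells left without stimulation, and KO_Pam3 and WT_Pam3, the same genotypes given Pam3, the common short name of a synthetic lipopeptide ligand of TLR1 and TLR2. Each group held 6 libraries. NINJ1 is a small cell-surface protein known for breaking the plasma membrane when cells die by lysis, and the groups allow its loss to be compared with and without stimulation. The labels give no dose, duration, animal age or animal number, and do not say which part of the gene was removed. Whether the 6 libraries of 1 group come from separate animals or cultures is not stated either, so p-values measure the spread between these libraries, which may be technical.

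Type I interferons are secreted proteins that bind a receptor made of the chains IFNAR1 and IFNAR2. The receptor kinases then activate transcription factors, among them STAT2 in a complex with IRF9, which bind a DNA element, the interferon-stimulated response element (ISRE), in front of many genes that block viral entry, replication and release. Macrophages make interferon-beta after sensing microbes, and also keep a low tonic level of interferon signalling at rest. Many of the induced proteins, among them STAT2, USP18 and the RNA sensors, belong to the pathway itself and raise or restrain the next round of signalling.

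Library totals lay between 31302011 and 40663152 counts. Ninj1 RNA (chromosome 13, positions 49187485 to 49196244 of GRCm38) was at 151 to 179 CPM in KO_media and 289 to 325 CPM in WT_media, and at 409 to 479 CPM in KO_Pam3 and 646 to 1145 CPM in WT_Pam3, where CPM is the count scaled to an effective library of 1e6 reads. Xist, the RNA of the inactive X chromosome, was at 233 to 796 CPM over all 24 libraries, which a male label, given for WT and missing for KO libraries, would not lead to. Macrophage markers were abundant in every group, with a summed level of 26494 to 27153 CPM in KO_media and 25889 to 27609 CPM in WT_media. Libraries KO_media 1 and WT_Pam3 5 stood apart from their groups, and results that rest on them are also given without them. In bulk RNA, fewer cells of a type and less RNA per cell cannot be told apart.

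Some of the genes with the largest differences hold the ISRE core in their promoters, and others do not. RefSeq windows on GRCm38.p6, from 250 bases before the start site to 50 bases from it on, were searched on both strands for GAAANNGAAA, whose reverse complement is TTTCNNTTTC, and overlapping matches were counted. A window was at hand for 31 of the 38 genes, and 15 of these (48.4%) held at least 1 match, against 3.99% of the 27025 genes with a window. A match is a description of the letters and not a binding site. Ifit2, Ifi44 and Oasl2, also among the genes with the largest differences in unstimulated cells, had windows with no match. The stretches that follow are examples, not picked by the size of the difference. Apart from Ifnar1 they come from genes with 2 or 3 matches, while 16 of the 31 genes with a window held none. They are given 5′ to 3′ along the strand of the gene, with the GAAA or TTTC blocks of the core in capitals. Isg15 (chr4:156200860-156200911, minus strand) held 3 overlapping matches. Ifit1 (chr19:34640770-34640828, plus strand), Ifit3 (chr19:34583358-34583431, plus strand), Ifit3b (chr19:34607754-34607827, plus strand), Oas1a (chr5:120907515-120907560, minus strand) and Bst2 (chr8:71537572-71537617, minus strand) held 2 each. Ifnar1 (chr16:91485115-91485214, plus strand), a receptor gene with no match and no called difference in unstimulated cells, is shown for contrast.
Isg15: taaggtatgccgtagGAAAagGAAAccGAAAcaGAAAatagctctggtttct
Ifit1: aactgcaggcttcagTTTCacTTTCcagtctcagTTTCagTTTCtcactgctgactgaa
Ifit3: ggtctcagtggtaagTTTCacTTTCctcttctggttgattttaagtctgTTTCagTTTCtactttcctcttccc
Ifit3b: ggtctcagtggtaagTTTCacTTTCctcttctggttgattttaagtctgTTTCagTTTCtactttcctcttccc
Oas1a: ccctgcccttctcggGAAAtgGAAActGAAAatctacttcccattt
Bst2: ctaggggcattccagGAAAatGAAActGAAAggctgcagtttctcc
Ifnar1: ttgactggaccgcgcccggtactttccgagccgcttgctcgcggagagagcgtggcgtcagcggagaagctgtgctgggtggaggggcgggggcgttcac
The Ifit3 and Ifit3b stretches differ at 0 positions, while over the 268 bases of both windows, aligned without gaps, 67 differ. Ifit3 and Ifit3b are neighbouring genes of closely related sequence, and because only uniquely aligned reads were counted, their levels are uncertain and reads can be lost or assigned to the wrong copy.

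In unstimulated cells most of the antiviral genes were higher without Ninj1. Of the 38 genes, 28 rose in KO_media over WT_media and 0 fell, at a Benjamini-Hochberg adjusted p under 0.05 in edgeR's quasi-likelihood test over all 14435 tested genes. Of all tested genes, 3.03% passed in either direction, 1.92% higher and 1.12% lower. The median log2 fold change of the 38 was 0.55, against -0.002 over all tested genes, and 37 of 38 values were above 0. In 22 of the 38 all 6 KO_media libraries lay above all 6 WT_media libraries, a separation found in 2.16% of tested genes (the opposite one in 2.11%). The members sit on 14 chromosomes and 0 of them on chromosome 13, where Ninj1 lies.

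**Figure D1:**
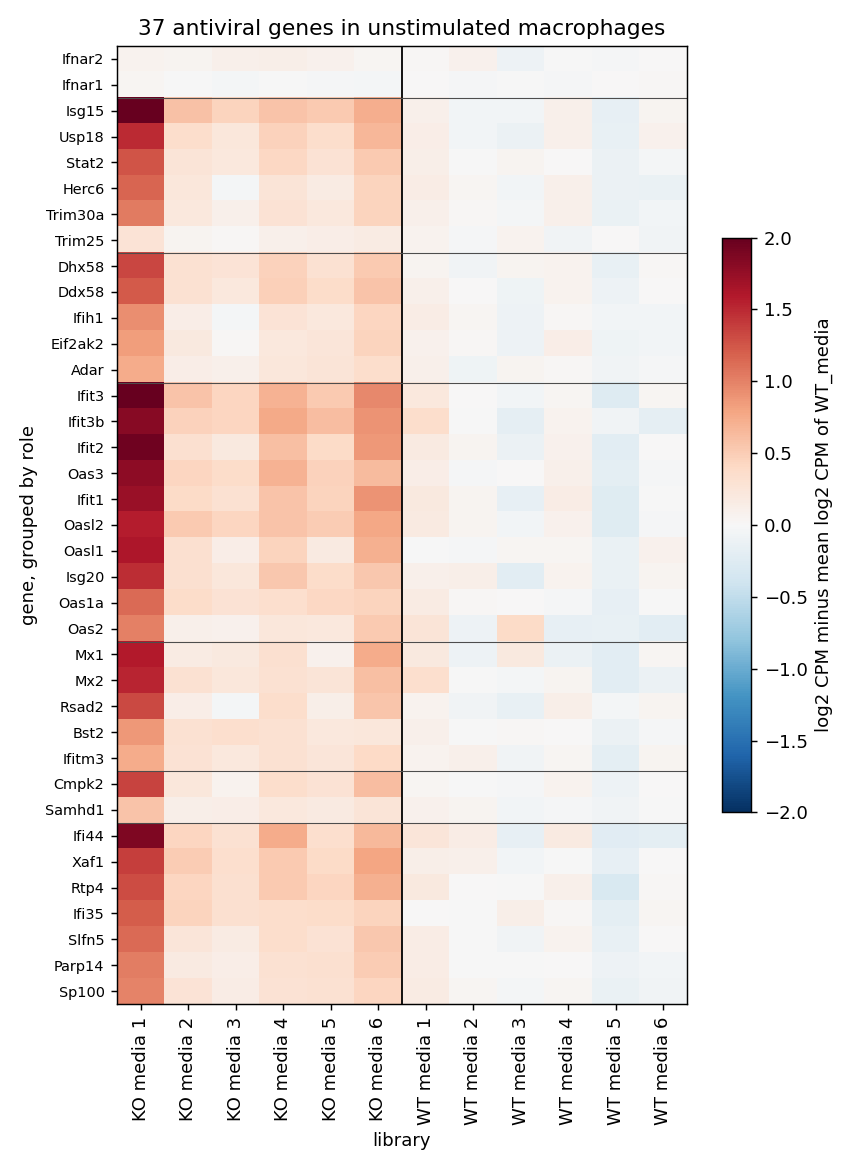
Colour gives log2 CPM in each unstimulated library minus the mean log2 CPM of WT_media, for 37 genes in rows grouped by role (Ifnb1, near 0 counts, is left out) and 12 libraries in columns, KO_media left of WT_media. KO_media 1 is the highest KO_media library in 37 of the 38 genes, and the other 5 KO_media libraries are also mostly above WT_media.

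Neither the interferon gene nor the receptor genes passed the test between unstimulated genotypes. Ifnb1, which encodes interferon-beta (chromosome 4, positions 88522025 to 88522774), had 0 or 1 count in each library, 3 in all of KO_media and 2 in all of WT_media. Every media library was thus under the detection limit of 3 counts per library, which corresponds to 0.0627 to 0.111 CPM over all 24 libraries. Ifnar1, the receptor chain that binds the kinase TYK2, was at 184, 188 and 195 CPM (lowest, median, highest) in KO_media and at 187, 190 and 193 CPM in WT_media. The ranges overlap, and the log2 fold change was -0.01 (SE 0.0372, adjusted p = 0.939). Ifnar2, the receptor chain that binds JAK1, was at 124, 127 and 130 CPM in KO_media and at 112, 120 and 128 CPM in WT_media, with a log2 fold change of 0.08 (SE 0.0317, adjusted p = 0.239). All 6 KO_media libraries of Ifnar2 were above the WT_media median, but the groups overlapped.

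Other interferon genes gave almost no reads. Of 20 further interferon genes of the alpha, lambda, gamma and other types, 16 had 0 counts in all 24 libraries. Ifnz, a zeta interferon, had 7 counts in all of KO_media, 4 in WT_media, 0 in KO_Pam3 and 1 in WT_Pam3. Ifng, the type II interferon, had 0 counts in KO_media and 1 in WT_media, and 21 in KO_Pam3 and 29 in WT_Pam3.

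Among signalling and feedback genes, 3 of 6 rose in KO_media. Isg15, a ubiquitin-like protein that is attached to other proteins, was at 28.7, 31.3 and 84.1 CPM in KO_media and at 18.7, 21.1 and 22.6 CPM in WT_media. Every KO_media library was above every WT_media library, and the log2 fold change was 0.93 (SE 0.190, adjusted p = 0.00550). Usp18, which removes ISG15 from proteins and restrains the receptor, rose by 0.65 (SE 0.136, adjusted p = 0.00621) on the log2 scale. Stat2, the pathway's transcription factor, rose by 0.54 (SE 0.114, adjusted p = 0.00769), also with separated groups. Herc6, the ligase that attaches ISG15 in mouse (0.42, adjusted p = 0.0679), Trim30a, a regulator of innate signalling (0.42, adjusted p = 0.0567), and Trim25, a ubiquitin ligase of the RIG-I pathway (0.12, adjusted p = 0.225), did not pass the test.

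Of the 5 genes for RNA sensing and editing, 3 rose. Ddx58, the RNA sensor RIG-I, was at 78.0, 90.0 and 159 CPM in KO_media and at 62.5, 67.6 and 72.7 CPM in WT_media (log2 0.57, SE 0.112, adjusted p = 0.00378). Dhx58, the related sensor LGP2, rose by 0.58 (SE 0.120, adjusted p = 0.00562). For both sensors the groups did not overlap. Adar, an enzyme that edits adenosine in double-stranded RNA, rose by 0.32 (SE 0.0782, adjusted p = 0.0229) with overlapping groups. Ifih1, the sensor MDA5 (0.36, adjusted p = 0.0750), and Eif2ak2, the kinase PKR that stops translation on sensing double-stranded RNA (0.35, adjusted p = 0.0664), did not pass.

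RNA-binding and RNA-degrading effectors showed the largest differences, and 9 of 10 rose. Ifit3, of the tetratricopeptide family that binds foreign RNA together with its relatives, was at 57.0, 65.6 and 167 CPM in KO_media and at 35.5, 43.1 and 48.8 CPM in WT_media. No library of one genotype reached the range of the other, and the log2 fold change was 0.97 (SE 0.178, adjusted p = 0.00212). Ifit3b, its close relative, was at 9.91, 11.9 and 26.0 CPM in KO_media and at 6.51, 7.18 and 9.46 CPM in WT_media (log2 0.90, SE 0.164, adjusted p = 0.00198). Ifit2 was at 165, 202 and 550 CPM in KO_media and at 124, 147 and 162 CPM in WT_media (log2 0.85, SE 0.195, adjusted p = 0.0142). Ifit1, which holds viral RNA that lacks a host-type cap, was at 46.5, 53.7 and 125 CPM in KO_media and at 32.0, 38.3 and 43.3 CPM in WT_media (log2 0.81, SE 0.158, adjusted p = 0.00372). The groups of all 4 Ifit genes were separate, and these genes lie side by side on chromosome 19 (positions 34550694 to 34650009).

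The oligoadenylate synthetases, which make the messenger that activates the nuclease RNase L, followed the same direction. Oas3 was at 107, 123 and 289 CPM in KO_media and at 72.8, 83.0 and 91.9 CPM in WT_media (log2 0.82, SE 0.166, adjusted p = 0.00504). Oas1a, which has close paralogs, rose by 0.53 (SE 0.107, adjusted p = 0.00522). Both had separate groups. Oas2, in the same gene cluster on chromosome 5 (positions 120730333 to 120907521), did not pass (0.38, adjusted p = 0.0914), and its WT_media libraries spread from 70.8 to 107 CPM. Oasl2, an OAS-like gene, was at 176, 191 and 388 CPM in KO_media and at 110, 132 and 148 CPM in WT_media (log2 0.79, SE 0.127, adjusted p = 0.000570). Oasl1, which in mouse restrains IRF7 production, rose by 0.67 (SE 0.165, adjusted p = 0.0236), and Isg20, an exonuclease of RNA, rose by 0.63 (SE 0.158, adjusted p = 0.0242), all 3 with separate groups.

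Of the 5 genes that act at membranes or on entry and release, 4 rose, by less than the Ifit genes. Mx1, a GTPase that traps viral ribonucleoproteins and is defective in most laboratory strains, rose by 0.61 (SE 0.168, adjusted p = 0.0438). Mx2, annotated as a polymorphic pseudogene, rose by 0.61 (SE 0.167, adjusted p = 0.0435). Bst2, which tethers budding virus to the cell (0.39, adjusted p = 0.0472), and Ifitm3, which blocks fusion of virus in endosomes (0.37, adjusted p = 0.0195), rose with separate groups. Rsad2, the enzyme viperin, did not pass (0.48, adjusted p = 0.0771).

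Both genes of nucleotide supply rose. Samhd1, which breaks down deoxynucleotides, was at 504, 532 and 693 CPM in KO_media and at 445, 462 and 495 CPM in WT_media (log2 0.25, SE 0.0555, adjusted p = 0.0102). Cmpk2, a mitochondrial nucleotide kinase that neighbours Rsad2 on chromosome 12, rose by 0.55 (SE 0.136, adjusted p = 0.0220). All 7 remaining induced genes rose as well. Ifi44, a cytosolic protein of the interferon response, was at 17.0, 20.1 and 49.9 CPM in KO_media and at 11.7, 13.8 and 16.3 CPM in WT_media (log2 0.82, SE 0.187, adjusted p = 0.0133). Xaf1, a partner of the apoptosis inhibitor XIAP, rose by 0.70 (SE 0.120, adjusted p = 0.00105), and Rtp4, a chaperone of membrane receptors, rose by 0.65 (SE 0.112, adjusted p = 0.00105). Ifi35 (0.56), the Schlafen gene Slfn5 (0.49), the ADP-ribosyltransferase Parp14 (0.44) and the nuclear body protein Sp100 (0.43) completed the group, with adjusted p of 0.00621 to 0.0245 in the same test.

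**Figure D2:**
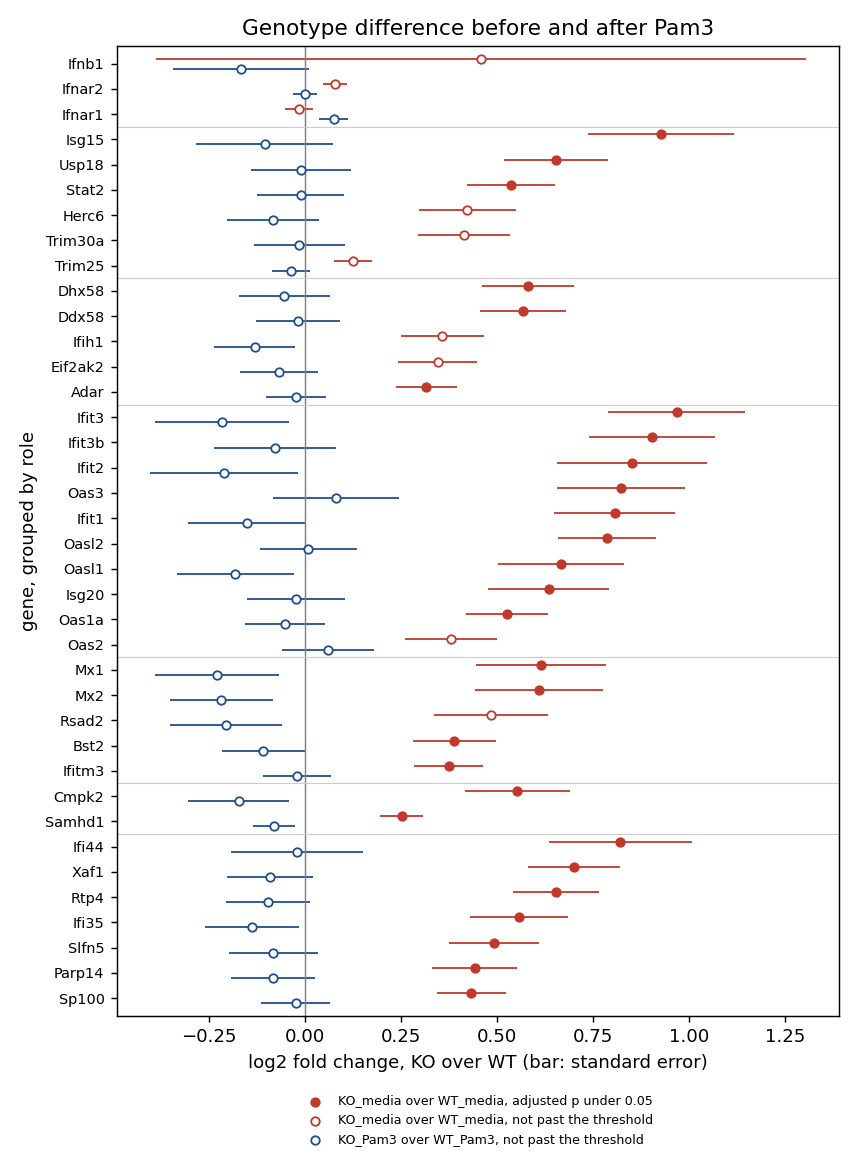
Points give the log2 fold change of KO over WT for each of the 38 genes, red without stimulation and blue after Pam3, with standard errors as bars, and filled points passed the test. The 28 filled points all lie on the positive side in red, and the blue points lie between -0.23 and 0.08 with none filled.

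Library KO_media 1 stood far above the rest of its group. It was the highest of its group in 37 of 38 genes, and over the 37 genes other than Ifnb1 its level was 0.986 to 2.94 times the median of the other 5 KO_media libraries, with a median of 1.83 times. The median log2 CPM over the 38 genes was 7.31 in KO_media 1, 6.27 to 6.58 in KO_media 2 to 6 and 5.89 to 6.11 in WT_media, so the other 5 libraries also stood above every WT_media library. In 22 genes KO_media 2 to 6 all stood above all WT_media libraries, a separation whose share over all tested genes was not counted. Without KO_media 1, 24 of 38 genes rose, all 24 among the 28. The median log2 fold change was then 0.33, more than 1.5 times smaller, against -0.003 over all tested genes. Over all tested genes, leaving out 1 library of any group gave 154 to 658 higher in KO_media.

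The single-gene values moved in the same way. Without KO_media 1 the log2 fold change of Ifit3 was 0.64 (adjusted p = 8.70e-05), and that of Isg15 was 0.57 (adjusted p = 0.000458). Bst2, Ifitm3, Mx1 and Mx2 lost their call. The coefficient of variation of the 37 genes had a median of 31.1% in KO_media and 7.05% in WT_media, against 6.49% and 6.35% over all tested genes. KO_media 1 was also high outside the list, with Irf7, the transcription factor that amplifies interferon genes, at 439 CPM against 210 to 245 CPM in KO_media 2 to 6. Its Il1b level was 2.68 CPM, against 0.548 to 0.886 CPM in KO_media 2 to 6. Cxcl2 (2.50 against 0.991 to 1.34 CPM) and Tnf (13.5 against 9.56 to 10.5 CPM) were also above those libraries. Nfkbia (58.9 against 51.9 to 58.2 CPM) and Tnfaip3 (51.1 against 46.9 to 48.8 CPM) were only slightly above. Ptgs2 (0.593 against 0.448 to 0.645 CPM) lay within their range.

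The number of genes that passed also moved with other libraries. The count of higher genes was 19 without WT_media 5, the lowest WT_media library in 26 genes, 20 without WT_media 3, and 35 without WT_Pam3 5, which belongs to neither group compared but is part of the shared fit. It was 33 without both KO_media 1 and WT_Pam3 5. Counts over all tested genes moved too, from 277 higher with all libraries to 154 to 658 when 1 library was left out. Without both libraries 541 of 14541 tested genes were higher. With DESeq2's Wald test it was 34, and the 28 were among them.

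Of 26 pathway genes outside the list, 6 rose and 0 fell in KO_media, against 1.92% and 1.12% of all tested genes. Of the 6, 3 were among the 7 transcription factors. The 6 included Zbp1, a sensor of nucleic acids (0.85), Irf7 (0.82), the signalling brake Socs3 (0.31), Irf9 (0.30) and the adaptor Myd88 (0.19), given as log2 fold changes. None of the 4 kinases Tbk1, Ikbke, Jak1 and Tyk2 passed in edgeR's test, with 0 of 4 at an unadjusted p under 0.05 and log2 fold changes of -0.02 to 0.01.

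Markers of 2 other cell types also differed between genotypes in the unstimulated libraries. Of 8 macrophage markers, 1 was called higher in KO_media and 0 lower. In 2 of the 8 all KO_media libraries lay above all WT_media libraries, and in 1 all lay below. Granulocyte markers summed to 82.1 to 94.8 CPM in KO_media and 60.3 to 71.3 CPM in WT_media, with 4 of 8 tested markers higher. Stromal and endothelial markers summed to 51.3 to 92.3 CPM in KO_media and 37.5 to 48.2 CPM in WT_media, with 6 of 8 higher. Of all tested genes 1.92% were called higher. In KO_media 1, the library with the most antiviral RNA, the granulocyte sum was 94.8 CPM, against 82.1 to 93.6 CPM in KO_media 2 to 6, and 1 of 9 markers was above all of them. The stromal and endothelial sum was 51.5 CPM in KO_media 1, against 51.3 to 92.3 CPM in KO_media 2 to 6, and 3 of 8 markers were below all of them. The sums of plasmacytoid dendritic cell (6.06 CPM), conventional dendritic cell (3.79 CPM) and B cell markers (6.70 CPM) were also highest in KO_media 1 within its group. In KO_media 2 to 6 these sums reached at most 6.02, 3.09 and 6.66 CPM. Of these markers 2 of 5, 3 of 4 and 1 of 4 were above all those libraries, and 0 were below all. Of the macrophage markers 3 of 8 were above and 0 below, with a sum of 26643 CPM, against 26494 to 27153 CPM in KO_media 2 to 6. Plasmacytoid dendritic cell markers, of the cells known for making most interferon-alpha, summed to 5.18 to 6.06 CPM in KO_media and 5.24 to 6.00 CPM in WT_media. Conventional dendritic cell markers summed to 2.07 to 3.79 CPM in KO_media and 2.63 to 3.41 CPM in WT_media, and B cell markers to 5.50 to 6.70 CPM in KO_media and 4.93 to 6.22 CPM in WT_media. T and NK cell markers summed to 0.103 to 0.336 CPM in KO_media and 0.116 to 0.240 CPM in WT_media. No marker was at 0 counts throughout a media group. The part of granulocyte and stromal cells in the difference was not tested.

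After Pam3 no gene of the list passed the test between genotypes. Of the 38, 0 rose and 0 fell in KO_Pam3 over WT_Pam3 in edgeR's test, against 4.06% of all tested genes called (1.31% higher, 2.75% lower). At an unadjusted p under 0.05 the count was 0 as well, and with DESeq2 it was 0. The median log2 fold change was -0.08, against -0.01 over all tested genes, and single genes ranged from -0.23 to 0.08. A value that misses the threshold does not show equal levels, and 33 of 38 values were below 0.

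Mx1 was the 1 gene with separate groups, with 587, 653 and 692 CPM in KO_Pam3 and 697, 765 and 817 CPM in WT_Pam3. All 6 KO_Pam3 libraries were below all 6 WT_Pam3 libraries, found in 1.63% of tested genes (the opposite in 0.894%), but the log2 fold change of -0.23 (SE 0.162, adjusted p = 0.515) did not pass. Ifit3, whose groups were separate without stimulation, was at 166, 173 and 190 CPM in KO_Pam3 and at 178, 197 and 257 CPM in WT_Pam3, with overlapping groups. Irf1, a transcription factor outside the list, fell by 0.33 on the log2 scale in KO_Pam3, and Irf5 fell by 0.16. They were the 2 called among the 26 pathway genes, against 2.75% of all tested genes called lower.

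Library WT_Pam3 5 stood apart in both directions. It was above the other 5 WT_Pam3 libraries in 15 genes, whose median exon length was 2000 bases, below them in 17 genes, whose median was 5940 bases, and within them in 6. For Bst2 it was 1.61 times the median of the others and for Trim30a 0.630 times. Without that library 0 of 38 genes passed. Without both WT_Pam3 5 and KO_media 1, 8 fell, namely Ifit2 (-0.29), Rsad2 (-0.27), Mx1 (-0.23), Cmpk2 (-0.22), Ifih1 (-0.20), Parp14 (-0.16), Slfn5 (-0.16) and Eif2ak2 (-0.15). All 8 had an adjusted p of 0.00249 to 0.0389 there, so the count of 0 depends on including these libraries. Calls over all genes rose as well without both libraries, to 389 higher and 936 lower of 14541 tested. With all libraries they were 189 and 397 of 14435.

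**Figure D3:**
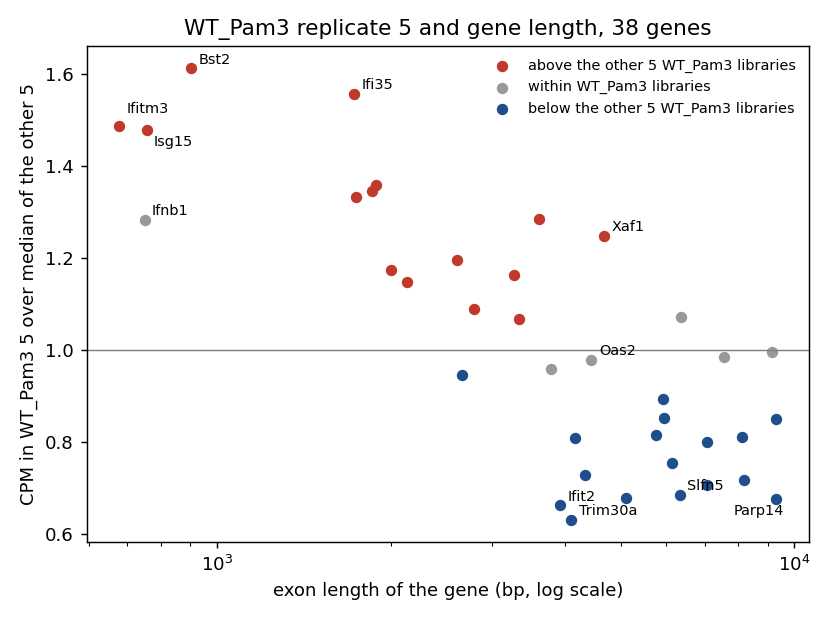
Each point is 1 of the 38 genes, placed by exon length in bases on a log axis and by the CPM of WT_Pam3 5 over the median of the other 5 WT_Pam3 libraries. Short genes such as Bst2 tend to lie above 1, up to 1.61, and long genes such as Parp14 below it, down to 0.630 for Trim30a. Exceptions include Ifit1 (2656 bases, 0.945), Xaf1 (4689 bases, 1.25) and Oasl2 (6374 bases, 1.07).

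Pam3 raised almost the whole list in both genotypes. In KO macrophages 36 of 38 genes rose and 0 fell, and in WT macrophages 38 rose and 0 fell, at an adjusted p under 0.05 in edgeR's test. This treatment changed most of the transcriptome, with 85.0% of tested genes called in KO (40.2% higher, 44.8% lower) and 84.8% in WT (40.6% higher, 44.2% lower). The median log2 fold change of the 38 was 1.80 in KO and 2.31 in WT, against -0.07 and -0.05 over all tested genes. All 6 Pam3 libraries lay above all 6 media libraries in 33 genes in KO and in 37 genes in WT, against 36.0% and 32.5% of tested genes (39.7% and 36.4% in the opposite direction). With scaling by library size only, the median of all tested genes shifted to -0.56 in KO and -0.58 in WT, and that of the 38 to 1.32 and 1.79.

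Interferon-beta transcripts were detected after Pam3 in every library. Ifnb1 had 22 to 30 counts per library in KO_Pam3, 159 in all, and 0 or 1 count per library in KO_media. It had 20 to 38 counts per library in WT_Pam3, 165 in all, and 0 or 1 in WT_media. The ratio of pooled levels was 70.9 in KO (95% exact interval 23.8 to 348) and 123 in WT (33.5 to 1022), intervals that overlap and cover counting error only. Ifnb1 stayed at a low absolute level, at 0.702 to 1.003 CPM in KO_Pam3 and 0.722 to 1.29 CPM in WT_Pam3.

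The receptor chains rose too. Ifnar1 was at 507, 516 and 543 CPM in KO_Pam3 and 184, 188 and 195 CPM in KO_media (1.47 on the log2 scale, SE 0.0379, adjusted p = 4.26e-23). In WT it was at 430, 503 and 524 CPM in WT_Pam3 and 187, 190 and 193 CPM in WT_media (log2 1.38, SE 0.0378, adjusted p = 1.73e-22). Ifnar2 was at 190, 194 and 197 CPM in KO_Pam3 and 124, 127 and 130 CPM in KO_media (log2 0.61), and at 187, 192 and 204 CPM in WT_Pam3 and 112, 120 and 128 CPM in WT_media (log2 0.69). For both chains the treatment groups were separate in both genotypes.

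The same 8 genes had the largest log2 fold changes in KO and in WT, namely Ifnb1, Isg15, Ifit1, Mx1, Mx2, Usp18, Rsad2 and Oasl1. Isg15 was at 604, 637 and 691 CPM in KO_Pam3 against 28.7, 31.3 and 84.1 CPM in KO_media (4.01 on the log2 scale, SE 0.204, adjusted p = 2.49e-16). In WT it was at 555, 653 and 962 CPM in WT_Pam3 against 18.7, 21.1 and 22.6 CPM in WT_media (log2 5.04, SE 0.215, adjusted p = 4.64e-18). Ifit1 was at 955, 1008 and 1074 CPM in KO_Pam3 against 46.5, 53.7 and 125 CPM in KO_media (log2 3.92, SE 0.172). In every one of these genes the Pam3 libraries lay far above the media libraries.

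Ifit1 was at 1066, 1110 and 1206 CPM in WT_Pam3 against 32.0, 38.3 and 43.3 CPM in WT_media (log2 4.88, SE 0.180). Mx1 was at 587, 653 and 692 CPM in KO_Pam3 against 36.4, 40.9 and 102 CPM in KO_media (log2 3.62), and at 697, 765 and 817 CPM in WT_Pam3 against 29.6, 33.5 and 39.1 CPM in WT_media (log2 4.47). Mx2 was at 90.5, 94.3 and 105 CPM in KO_Pam3 against 6.08, 6.42 and 14.9 CPM in KO_media (log2 3.60), and at 97.3, 110 and 138 CPM in WT_Pam3 against 4.47, 5.09 and 6.54 CPM in WT_media (log2 4.43). Mx1 and Mx2 are neighbours on chromosome 16 (positions 97447035 to 97560900) and, like the genes before them, had separate treatment groups in both genotypes.

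Usp18 was at 487, 506 and 553 CPM in KO_Pam3 against 28.9, 32.9 and 69.4 CPM in KO_media (log2 3.71), and at 482, 515 and 553 CPM in WT_Pam3 against 22.5, 25.03 and 27.2 CPM in WT_media (log2 4.37). Rsad2 was at 1491, 1596 and 1762 CPM in KO_Pam3 against 89.2, 108 and 228 CPM in KO_media (log2 3.65), and at 1395, 1907 and 2061 CPM in WT_Pam3 against 82.7, 91.6 and 99.3 CPM in WT_media (log2 4.34). Oasl1 was at 241, 249 and 282 CPM in KO_Pam3 against 18.0, 21.5 and 50.6 CPM in KO_media (log2 3.29), and at 247, 289 and 339 CPM in WT_Pam3 against 15.1, 16.6 and 17.4 CPM in WT_media (log2 4.14). In each of these 3 genes every Pam3 library was above every media library.

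The smallest responses in both genotypes were those of Trim25. Trim25 was at 354, 361 and 377 CPM in KO_Pam3 and 320, 340 and 377 CPM in KO_media (0.08 on the log2 scale, SE 0.0495, adjusted p = 0.115). In WT it was at 313, 380 and 408 CPM in WT_Pam3 and 298, 313 and 331 CPM in WT_media (log2 0.24, SE 0.0495, adjusted p = 6.02e-05), with overlapping groups. With scaling by library size only its direction turned, to -0.40 in KO and -0.28 in WT, and both then passed the test as lower. Ifit3b was the other gene not called in KO, at 15.2, 16.5 and 18.3 CPM in KO_Pam3 and 9.91, 11.9 and 26.0 CPM in KO_media (0.26 on the log2 scale, SE 0.159, adjusted p = 0.132). Without KO_media 1 both passed, and 38 of 38 genes rose in KO.

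In 5 genes KO_media 1 reached the levels of KO_Pam3. Its Ifit3b level of 26.0 CPM and Trim25 level of 377.4 CPM were above every KO_Pam3 library, of which the highest had 18.3 and 376.9 CPM. Its Ifit3 level of 167 CPM, Oas2 level of 166 CPM and Oas3 level of 289 CPM lay within the KO_Pam3 ranges of 166 to 190, 163 to 190 and 283 to 338 CPM. KO_media 2 to 6 were below all KO_Pam3 libraries in all 38 genes. The other 33 genes of KO_media 1 were below all KO_Pam3 libraries as well. The share of all tested genes below KO_Pam3 in KO_media 2 to 6, or in KO_media 1, was not counted. With all 6 KO_media libraries it was 36.0%.

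**Figure D4:**
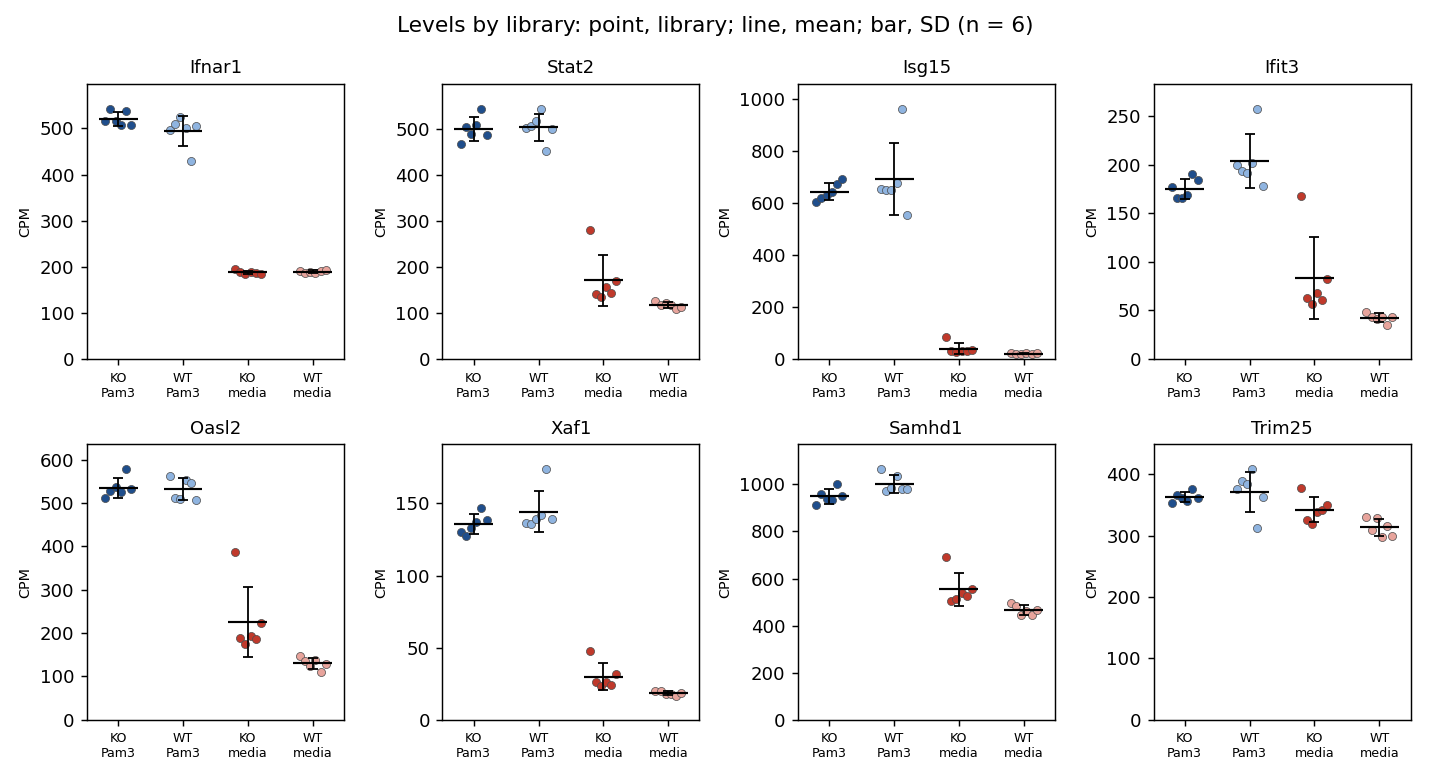
Points are libraries, lines means and bars SD (n = 6) of CPM on axes that start at 0, for 8 genes in KO_Pam3, WT_Pam3, KO_media and WT_media. Ifnar1 is higher in both Pam3 groups, Ifit3 in KO_media reaches 167 CPM in 1 library, and Isg15 in WT_Pam3 reaches 962 CPM in 1 library.

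The log2 response to Pam3 was smaller in KO than in WT in 7 genes, all of them called higher in KO_media. The interaction, which is the log2 response in KO minus that in WT, passed the test as lower in 7 of 38 genes and as higher in 0, against 0.762% of all tested genes called (0.173% higher, 0.589% lower). It equals the genotype difference after Pam3 minus that in media, so it carries the media difference already described. For Ifit3 these differences were -0.22 after Pam3 and 0.97 in media, and for Oasl2 0.01 and 0.79. The median over the 38 was -0.63, against -0.02 over all tested genes. At an unadjusted p under 0.05, 34 of 38 were lower. The share of all tested genes at that looser threshold was not counted, and the 0.762% does not apply to it. Ifit3 had the largest called value, at -1.18 (SE 0.248, adjusted p = 0.0221), followed by Ifit3b at -0.98 (SE 0.229, adjusted p = 0.0382) and Ifit1 at -0.96 (SE 0.219, adjusted p = 0.0344).

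The other 4 came from other roles. Xaf1 was at -0.79 (SE 0.165, adjusted p = 0.0219), with 128, 135 and 147 CPM in KO_Pam3 and 136, 139 and 174 CPM in WT_Pam3, and with 23.2, 26.2 and 47.8 CPM in KO_media and 16.4, 18.2 and 19.9 CPM in WT_media. Its groups were separate between genotypes in media and overlapped after Pam3. Oasl2 was at -0.78 (SE 0.179, adjusted p = 0.0350), with 511, 530 and 578 CPM in KO_Pam3 and 508, 529 and 563 CPM in WT_Pam3. Rtp4 was at -0.75 (SE 0.157, adjusted p = 0.0221), with 340, 350 and 381 CPM in KO_Pam3 and 358, 374 and 425 CPM in WT_Pam3, and with 95.4, 107 and 189 CPM in KO_media and 61.7, 77.4 and 87.2 CPM in WT_media. Samhd1 was at -0.33 (SE 0.0784, adjusted p = 0.0401), with 912, 944 and 1001 CPM in KO_Pam3 and 971, 984 and 1064 CPM in WT_Pam3. Each of these genes was separate between genotypes in media and overlapped between genotypes after Pam3.

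The interaction calls moved widely when 1 library was left out. Without WT_media 3 or without WT_media 5 none of the 38 passed (0 and 0), with medians of -0.58 and -0.56. The count was 19 without KO_media 1, 32 without WT_Pam3 5 and 32 without both, and each of these sets held the 7. Without KO_media 1 the median was -0.40. DESeq2's Wald test called 25. Among the 26 pathway genes 3 were lower, Irf7 (-0.83), Irf1 (-0.53) and Irf9 (-0.27), against 0.589% of all tested genes.

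**Figure D5:**
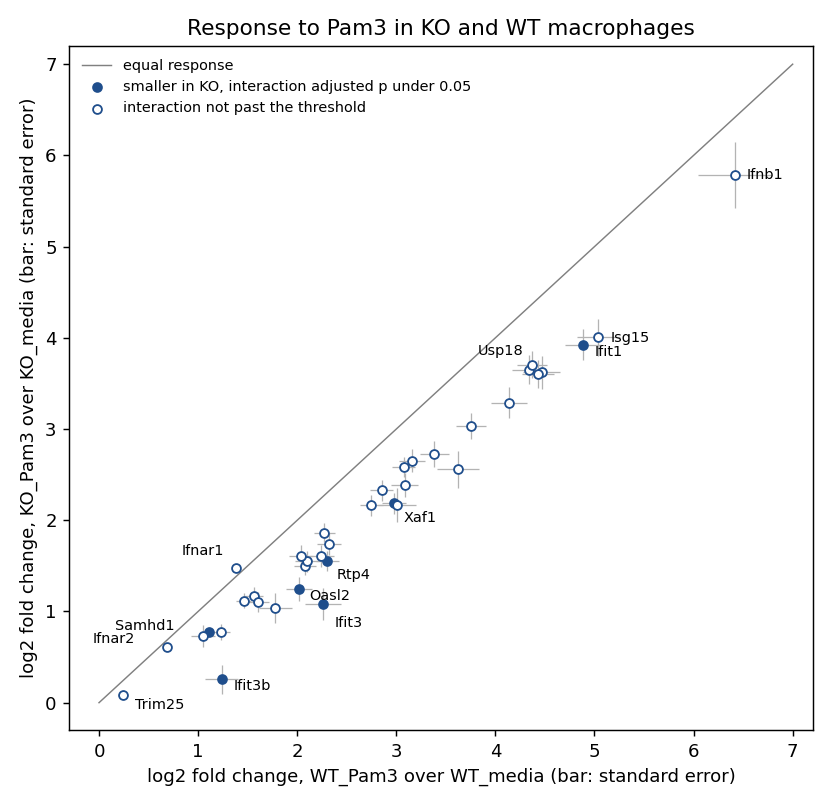
Each point is 1 of the 38 genes, placed by its log2 fold change with Pam3 in WT (horizontal) and in KO (vertical), with standard errors, and the line marks equal responses. Filled points are the 7 genes with a called interaction, and 37 of the 38 points lie below the line, Ifnar1 being the exception.

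After Pam3 the summary level of the list overlapped between genotypes. The median log2 CPM over the 38 genes was 8.45 to 8.54 in KO_Pam3 and 8.41 to 8.60 in WT_Pam3. The spread within a group was smallest in KO_Pam3, where the median coefficient of variation of the 37 genes was 4.77%, against 10.02% in WT_Pam3 (7.56% and 15.5% over all tested genes). On the scale of the deposited RPKM, which divides by gene length and so allows genes to be compared, Ifitm3 was the most abundant of the 38 in all 4 groups. Its median was 1246 RPKM in KO_Pam3, 1202 in WT_Pam3, 515 in KO_media and 439 in WT_media. Bst2 ranked next in media, at 170 RPKM in KO_media and 139 in WT_media. After Pam3 Isg15 took that place, at 763 RPKM in KO_Pam3 and 785 in WT_Pam3, from place 13 of 38 in KO_media and 14 in WT_media. Ifnb1 was the lowest in every group, at a median of 1.04 RPKM in KO_Pam3 and 1.08 in WT_Pam3.

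Genes with and without the ISRE core are compared here as a description. Of the 15 genes with a match, 11 rose in KO_media, and of the 16 with a window and no match, 11 rose too. The median log2 fold change of KO_media over WT_media was 0.53 with a match and 0.51 without. For WT_Pam3 over WT_media it was 2.26 with a match and 2.99 without. No match says only that these letters are not in this window.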

How the data were processed

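The authors deposited, for each of 24 libraries of mouse macrophage polyA RNA, a count of reads uniquely aligned to each gene model and an RPKM value that they had also rescaled with size factors, as the file headers state. The submitters' processing notes name GSNAP and GRCm38, with versions not given in the sources used here. The kit does not mark strand, per the labels' protocols. Models without a symbol, 147 of 52636, held 0.00387% of reads. Counts were tested with edgeR 4.0.16 (R 4.3.3), with TMM scaling, filterByExpr (14435 genes tested), the quasi-likelihood F-test on group means over all 24 libraries and Benjamini-Hochberg adjustment, called at adjusted p under 0.05. The SE is the log2 fold change divided by the square root of F. CPM uses TMM library sizes and is not corrected for gene length. Every printed adjusted p comes from this test unless DESeq2 (1.42.0) is named. The test was checked on simulated counts with the same spread for every gene and no outlying library. That check does not cover a group with a library like KO_media 1. Ifnb1 ratios carry exact 95% intervals of counting error only. The members and lists were chosen with earlier results of these data known. All 38 members are named. Full values go to the interferon and receptor genes and to the genes with the largest changes in each comparison. Alternatives were RLE scaling, library size only, no filter, a mean count of at least 10, DESeq2, the compared groups alone, each library left out, and KO_media 1 with WT_Pam3 5 left out. One pathway gene outside the 38 is counted but not reported here by name.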

Additional observations from a re-analysis of the deposited data

Results flagged for a closer look

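In 31 genes KO_media 1 stood apart from the other 5 libraries of its group, with a gap to the nearest of them beyond Dixon's critical value. Chance flags about 1 in 20 groups. Its CPM was 125 for Ifit1, 550.2 for Ifit2, 167 for Ifit3, 26.0 for Ifit3b, 84.1 for Isg15, 12.55 for Isg20, 102 for Mx1, 14.87 for Mx2, 80.3 for Oas1a, 289 for Oas3, 50.6 for Oasl1, 388 for Oasl2 and 228 for Rsad2. It was 281 for Stat2, 69.4 for Usp18, 158.52 for Ddx58, 158.49 for Dhx58, 49.9 for Ifi44, 55.1 for Ifi35, 538 for Ifitm3, 224 for Bst2, 307 for Trim30a, 138 for Cmpk2 and 189 for Rtp4. It was 47.8 for Xaf1, 664 for Parp14, 693 for Samhd1, 222 for Adar, 46.3 for Herc6, 268 for Sp100 and 917 for Slfn5. All 31 values lay above the other KO_media libraries.

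WT_Pam3 5 stood apart from its group in the same way in 17 genes. Its CPM was above the other WT_Pam3 libraries for Ifit3 (257), Isg15 (962), Oas1a (197), Ifi35 (293), Ifitm3 (1281), Bst2 (549), Rtp4 (425) and Xaf1 (174). Its CPM was below them for Ifnar1 (430.1), Ifit2 (1247), Oas3 (208), Rsad2 (1395), Ifih1 (342), Trim30a (415), Parp14 (1695), Eif2ak2 (193) and Slfn5 (1512).

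The response to Pam3 differed between the genotypes by the interaction test in 7 genes. All 7 were also called higher in KO_media, a difference that the interaction carries. The log2 response in KO minus that in WT was -1.18 for Ifit3, -0.98 for Ifit3b, -0.96 for Ifit1, -0.79 for Xaf1, -0.78 for Oasl2, -0.75 for Rtp4 and -0.33 for Samhd1.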

How the results depend on the processing

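No paired analysis was possible because the labels carry no replicate numbers. Among the 38 genes, no alternative turned the direction of a called genotype or interaction value. Leaving out 1 library gave 19 to 35 genes higher in KO_media, against 28, and 0 to 32 interactions lower, against 7. For KO_media over WT_media across all genes, leaving out 1 library gave 154 to 658 higher and 84 to 616 lower, the compared groups alone gave 581 and 531, leaving out KO_media 1 and WT_Pam3 5 gave 541 and 515, and DESeq2 gave 294 lower. For KO_Pam3 over WT_Pam3, library size only gave 1 member higher, and 412 genes higher and 220 lower in all. The compared groups alone gave 63 and 114, leaving out 1 library 106 to 352 and 267 to 826, no filter 183 lower and DESeq2 599 lower. Leaving out both libraries gave 8 members lower, with 389 and 936 in all. With library size only, 1 member fell with Pam3 in KO and 1 in WT (Trim25, -0.40 and -0.28), Ifit3b was at -0.22 in KO, and 3685 genes rose in KO and 3584 in WT. For the interaction, DESeq2 called 25 members lower, with 90 genes higher and 303 lower in all. Leaving out both libraries gave 32 members, with 91 and 411 in all, library size only gave 54 lower, no filter 41 lower, and leaving out 1 library 8 to 102 higher and 20 to 442 lower. The compared groups alone give no interaction.

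Uncalled log2 values of KO_Pam3 over WT_Pam3 that lie near 0 changed sign. Ifnar2 was at -0.000454 with RLE scaling and -0.000370 with DESeq2. With library size only the values were 0.025 for Isg20, 0.038 for Stat2, 0.039 for Usp18, 0.031 for Ddx58, 0.028 for Ifi44, 0.028 for Ifitm3, 0.034 for Trim30a, 0.027 for Adar, 0.014 for Trim25 and 0.025 for Sp100. With no filter they were 0.0062 for Isg20, 0.018 for Stat2, 0.020 for Usp18, 0.012 for Ddx58, 0.0086 for Ifi44, 0.011 for Ifitm3, 0.014 for Trim30a, 0.0067 for Adar and 0.0069 for Sp100. With a mean count of at least 10, Stat2 was at 0.0063, Usp18 at 0.0076 and Trim30a at 0.0024, and with the compared groups alone Stat2 was at 0.0020 and Usp18 at 0.0031. Without both libraries, Isg15 was at 0.013, Isg20 at 0.052, Oas1a at 0.027, Usp18 at 0.012, Ifitm3 at 0.083 and Bst2 at 0.034. Leaving out 1 library gave -0.0090 to 0.018 for Ifnar2, -0.16 to 0.013 for Isg15, -0.068 to 0.052 for Isg20, -0.077 to 0.028 for Oas1a, -0.013 to 0.027 for Oasl2, -0.040 to 0.012 for Stat2, -0.034 to 0.012 for Usp18, -0.067 to 0.0098 for Ddx58, -0.078 to 0.025 for Ifi44, -0.052 to 0.083 for Ifitm3, -0.15 to 0.034 for Bst2, -0.11 to 0.015 for Trim30a and -0.069 to 0.0034 for Adar. The cause of these changes was not tested. Only Ifnb1 is limited by depth, with at most 1 count in any media library.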
